A study of Mus musculus with 6 samples.

Results

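The miR-200 family is represented here by 6 mature microRNAs (miRNAs), chosen by name from the 1247 mouse miRNAs on the array. The array lists them as mmu-miR-200a-3p, mmu-miR-200b-3p, mmu-miR-200b-5p and mmu-miR-429-3p, which come from 3 hairpins on chromosome 4, and mmu-miR-200c-3p and mmu-miR-141-3p, which come from 2 hairpins on chromosome 6. All 6 were found and all 6 could be tested, and they are written without the species prefix from here on. The material was whole kidney of male C57BL/6 mice, an inbred laboratory strain, with no treatment named. One group was 2 months old (young, 3 arrays) and the other 20 months old (aged, 3 arrays), each array carrying its own RNA preparation on a 1-colour Agilent miRNA array. The design text calls the preparations independent and does not tie them to animals, so p-values cover the variation among preparations, part of which may be technical. In whole kidney, fewer cells of a type and less RNA per cell cannot be told apart.

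The family is known as a marker of epithelial cells. Its members bind the transcripts of Zeb1 and Zeb2, repressors of E-cadherin, and the ZEB proteins in turn repress transcription of both miRNA clusters. In kidney the family belongs to tubule and collecting duct epithelium, and loss of its members is a known part of epithelial-mesenchymal transition.

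A miRNA selects its targets mainly through its seed, bases 2 to 8 from the 5′ end. The mature sequences are shown because the seed, and not the chromosome, sorts the family: each seed is carried by members of both clusters. RefSeq (GRCm38.p6) held a sequence for all 6 members, written here 5′ to 3′ with the seed in capitals.
miR-200a-3p: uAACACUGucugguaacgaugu
miR-141-3p: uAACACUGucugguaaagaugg
miR-200b-3p: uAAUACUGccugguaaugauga
miR-200c-3p: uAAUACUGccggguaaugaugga
miR-429-3p: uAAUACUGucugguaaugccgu
miR-200b-5p: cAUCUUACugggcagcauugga
miR-200a-5p: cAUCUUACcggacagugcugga

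The first 2 sequences share one seed, and in the RefSeq table no other mature mouse miRNA carries it. The next 3 share the other seed, again with no further carrier. Counted from the 5′ end, miR-200a-3p and miR-141-3p differ at 2 of 22 bases (C17A and U22G), none in the seed. miR-200b-3p and miR-200c-3p also differ at 2 of the 22 bases compared (U11G and A22G), with 1 more base at the 3′ end of miR-200c-3p. miR-429-3p differs from miR-200b-3p at 4 bases, all outside the seed. The only seed difference among the 3p arms is at position 4 (C4U from miR-200a-3p to miR-200b-3p). Probe sequences were not analysed here, and how far a probe also binds the near-identical partner was not measured. The opposite arm miR-200b-5p shares its seed with miR-200a-5p, another arm of the chromosome 4 hairpins.

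On GRCm38.p6 both clusters are read from the minus strand. The chromosome 4 hairpins follow each other in the order miR-200b, miR-200a, miR-429 within 1846 bases, inside the span of the long noncoding RNA gene Gm13648, with Ttll10 and 9430015G10Rik as the nearest protein-coding genes. The chromosome 6 hairpins, miR-200c and then miR-141, lie within 477 bases between Phb2 and Ptpn6, inside no other annotated gene. The mature miR-200a-3p lies at chr4:156054911-156054932, miR-200b-3p at chr4:156055685-156055706 and miR-429-3p at chr4:156053916-156053937. Mature miR-200c-3p lies at chr6:124718324-124718346 and miR-141-3p at chr6:124717917-124717938.

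Values are log2 of the background-corrected fluorescence after division by the array's 75th percentile over 315 probes that were well above background on all 6 arrays, so 0 is the level of that percentile. Values under a floor of -5.22 were set to it. The arrays differed in brightness, with a percentile of 1171 (aged array 1) to 2054 (aged array 2) intensity units. From 177 (aged array 3) to 209 (young array 1) miRNAs were well above background, and no spot was saturated (0 on each). Young arrays correlated with each other at 0.998 over the tested miRNAs and aged arrays at 0.972 to 0.989. Young arrays and aged array 1 lay in slide row 1, and aged arrays 2 and 3 in slide row 2, so age and row are mostly confounded. All 6 miRNAs listed for kidney tubule were well above background on every array, and the liver marker miR-122-5p was so on 0 arrays.

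In the scaling used, the 6 members had lower means in aged than in young kidney, and only miR-141-3p passed the threshold. The chromosome 6 pair differed most, by -0.38 for miR-141-3p and -0.33 for miR-200c-3p, while the 4 chromosome 4 members stood between -0.18 and -0.12. These directions depend on the scaling: all 6 turned positive, to between 0.03 and 0.29, when the 75th percentile was that of all probes, where the median of all tested miRNAs was 0.33. There the SE was 0.30 for each member, against 0.08 to 0.13 in the scaling used, and 0 members passed the threshold. Of those 3105 probes, 315 were well above background on all 6 arrays. The gap between the clusters was there under every scaling tried, but a scaling by a single factor per array could not change it. The ratios within arrays show this gap further on.

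The chromosome 6 pair is described first. miR-141-3p, which carries the seed of miR-200a, read -1.21, -1.37 and -1.22 on young arrays 1, 2 and 3 and -1.65, -1.57 and -1.72 on aged arrays 1, 2 and 3. Every aged array lay below every young one. The difference was -0.38 ± 0.08 (log2 ± SE, n = 3 per group, 1.30-fold lower; limma adjusted p = 0.0415). Its 95% interval ran from -0.58 to -0.18.

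miR-200c-3p, which carries the seed of miR-200b, read -1.35, -1.5 and -1.27 on the young arrays and -1.85, -1.72 and -1.56 on the aged ones. The groups again did not overlap, with aged array 1 lowest and aged array 3 only 0.059 below young array 2. The difference was -0.33 ± 0.11 (1.26-fold lower, 95% interval -0.59 to -0.08), and it missed the threshold over all miRNAs (limma adjusted p = 0.1).

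The 3p arms of the chromosome 4 cluster were brighter and lay closer together in age. miR-200a-3p read 1.52, 1.43 and 1.53 on young arrays and 1.27, 1.42 and 1.32 on aged arrays. Its groups were apart by 0.0075 only, between young array 2 and aged array 2. The difference was -0.16 ± 0.08 (95% interval -0.34 to 0.03; limma adjusted p = 0.264).

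miR-200b-3p read 1.65, 1.54 and 1.68 on young arrays and 1.30, 1.49 and 1.54 on aged arrays. Aged array 1 was clearly the lowest, and aged array 3 overlapped young array 2. The difference was -0.18 ± 0.09 (95% interval -0.40 to 0.05; limma adjusted p = 0.273).

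miR-429-3p, the third hairpin's product with the seed of miR-200b, read 1.39, 1.30 and 1.5 on young arrays and 1.13, 1.36 and 1.33 on aged arrays. Aged arrays 2 and 3 fell inside the young range and aged array 1 below it. The difference was -0.12 ± 0.10 (95% interval -0.36 to 0.11; limma adjusted p = 0.434).

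miR-200b-5p, the opposite arm of miR-200b, gave a far dimmer signal. It read -3.86, -3.82 and -3.63 on the young arrays and -4.00, -4.08 and -3.69 on the aged ones, with aged array 3 above 2 of the young arrays. The difference was -0.15 ± 0.13 (95% interval -0.46 to 0.15; limma adjusted p = 0.46). Of its 4 probes, 1 was well above background on all 6 arrays at 36.4 to 65.3 intensity units, 1 was so on a single array and 2 on none, so its summed value includes signal from probes that were not above background. The brightest probe alone differed by -0.26.

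**Figure D1:**
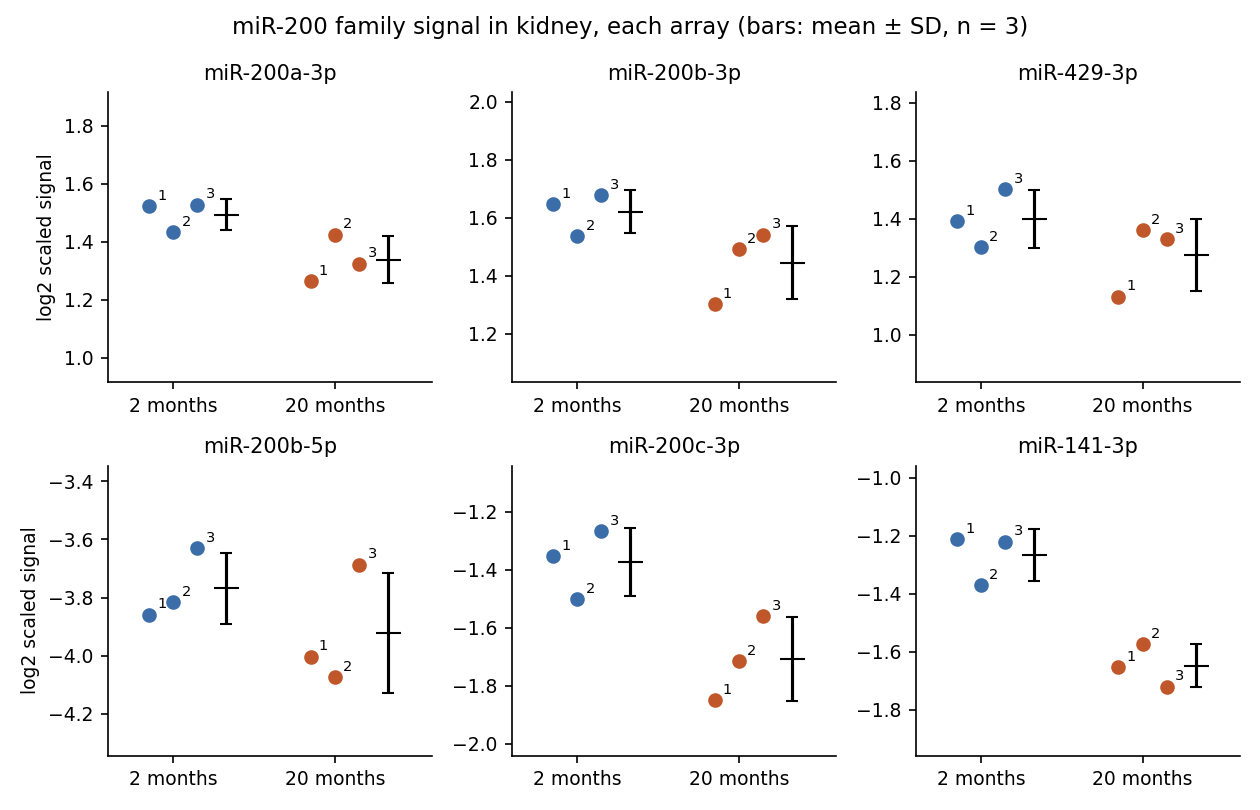
Each panel plots one member; the vertical axis is the log2 scaled signal, the horizontal axis the age group, points are arrays numbered by replicate, and bars are the mean ± SD (n = 3). All panels span 1 log2 unit, and under this scaling the aged points lie below the young ones without overlap for miR-141-3p, miR-200c-3p and, by 0.0075, miR-200a-3p. Scaled to the 75th percentile of all probes, the 6 differences were positive, with an SE of 0.30 each.

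Of the 6 members 1 passed the threshold, against 7.77% of the 193 miRNAs tested, and it was lower in aged kidney, against 3.63% lower and 4.15% higher over all tested. At an unadjusted p under 0.05 there were 2 members, both from chromosome 6, with 15.5% of all tested miRNAs lower at that level. All 6 differences were below 0, as were 66.3% over all tested, and 3 of 6 members had aged arrays wholly below young ones, against 20.2% (and 10.4% wholly above). The family's median difference was -0.17 and that of all tested miRNAs -0.08. These shares hold for the scaling used, since the median of all tested miRNAs was 0.06 with the median over detected probes, 0.03 in the authors' deposited values, 0.12 without scaling and 0.33 when the 75th percentile was that of all probes.

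The call of miR-141-3p was a close one. It was kept without aged array 1 (limma adjusted p = 0.0447) and lost without young array 1 (0.225), young array 2 (0.0752), young array 3 (0.13), aged array 2 (0.0591) or aged array 3 (0.0749), with differences of -0.43 to -0.35 throughout. With slide row as a block the difference was -0.39 (limma adjusted p = 0.205). Within slide row 1, where aged array 1 is the single aged array and is assumed to vary like the young ones, it was -0.39 (limma adjusted p = 0.0671), and miR-200c-3p passed there at -0.48 (limma adjusted p = 0.0342). Against the young mean, aged array 1 stood lowest of the aged arrays for miR-200a-3p, miR-200b-3p, miR-429-3p and miR-200c-3p (-0.23, -0.32, -0.27 and -0.48), and below every young array for all 6 members. Without aged array 1 the difference of miR-200b-3p was -0.10, that of miR-429-3p -0.053 and the mean of the chromosome 4 members -0.098. Single arrays also moved miR-429-3p to -0.073 (without young array 3) and miR-200b-5p to -0.085 (without young array 3), -0.077 (without aged array 2) or -0.27 (without aged array 3).

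For the 3p arms the separate probes could be compared. Each 3p arm was read by 2 probes of 20 spots each, whose spots varied by 3.02 to 11.3% (coefficient of variation). On both probes of miR-141-3p the aged mean was lower, by -0.38 on the brighter and -0.40 on the dimmer, and on those of miR-200c-3p by -0.34 and -0.33. The 6 probes of the chromosome 4 arms lay between -0.18 and -0.12, above all 4 probes of the chromosome 6 arms. Aged arrays were wholly below young ones on 7 of the 10 probes: both for miR-141-3p, miR-200c-3p and miR-200a-3p, and the dimmer one for miR-200b-3p.

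**Figure D2:**
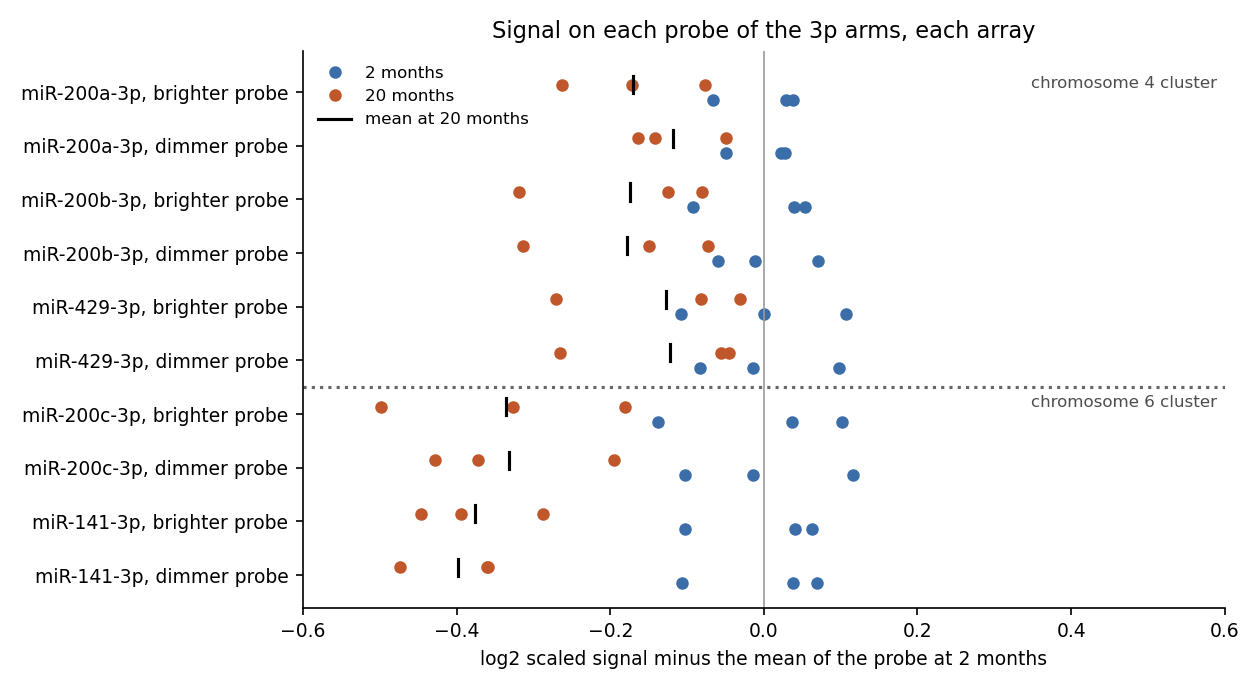
The horizontal axis is the log2 scaled signal of each probe minus its mean at 2 months, points are arrays (3 per age), and black ticks are the means at 20 months. Among these 3p arms the chromosome 6 probes have aged means of -0.40 to -0.33 and the chromosome 4 probes of -0.18 to -0.12. Both sets depend on the scaling (all members positive, SE 0.30 each, when it used the 75th percentile of all probes), while the gap between them does not depend on a common factor per array.

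The clusters were next compared in level and in age difference. Averaged over tested members, the chromosome 4 cluster stood at 0.19 ± 0.08 (log2, SD, n = 3) in young and 0.03 ± 0.10 in aged kidney, a difference of -0.15, and the same -0.15 with its 3p arms alone (1.5 ± 0.07 and 1.35 ± 0.10). The chromosome 6 cluster stood at -1.32 ± 0.10 in young and -1.68 ± 0.06 in aged kidney, a difference of -0.36. Its signal was thus below that of the chromosome 4 3p arms on every array. Signal also depends on how well each probe binds its miRNA, so this gap is no measure of the amounts of the miRNAs.

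The ratio of 2 members on one array does not move with any single scaling factor of that array, so its change with age can be compared where the separate differences cannot. For the pair sharing the miR-200a seed, the log2 ratio of miR-141-3p over miR-200a-3p was -2.73, -2.80 and -2.75 on young arrays and -2.92, -3.0 and -3.04 on aged arrays. Every aged array lay below every young one, and the means differed by -0.23. For a pair sharing the miR-200b seed, miR-200c-3p over miR-200b-3p was -3.0, -3.04 and -2.95 on young arrays and -3.15, -3.21 and -3.10 on aged arrays. These did not overlap either, and the means differed by -0.16. Each gave a two-sided exact permutation p of 0.1, and 0.1 adjusted over the 2 ratios, which is the smallest value 3 against 3 arrays allow, so this test could not have passed 0.05.

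All 10 ratios between the 5 3p arms were then set side by side. Of the 6 that pair one cluster with the other, 5 had aged arrays wholly below young ones, with differences of -0.26 to -0.16. The sixth, miR-200c-3p over miR-200a-3p, differed by -0.18 and overlapped through aged array 3 (-2.88, with young arrays at -2.93 to -2.79). Of the 4 ratios inside a cluster, 0 were without overlap, and their differences were -0.05 to 0.05. miR-141-3p over miR-200c-3p, for instance, was 0.14, 0.13 and 0.05 on young arrays and 0.20, 0.14 and -0.16 on aged arrays. The ratios share their members and so are not separate observations. A ratio shows unequal change of its 2 members and not which of them moved.

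**Figure D3:**
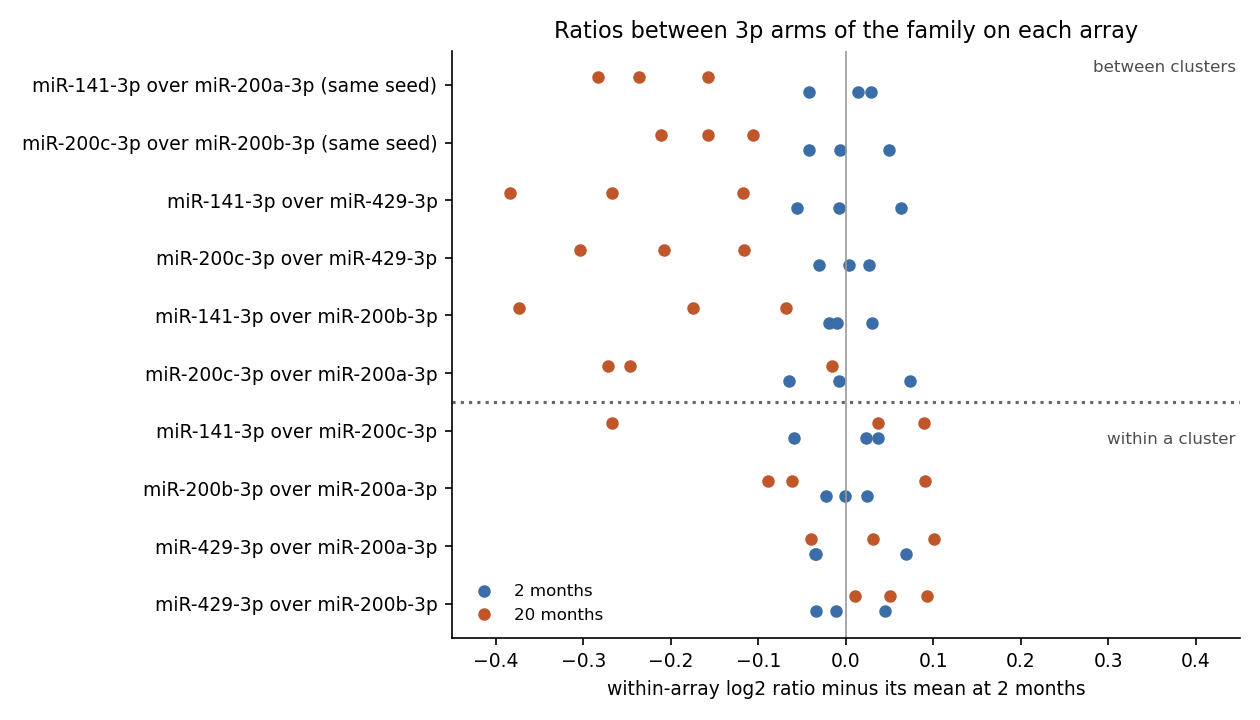
The horizontal axis is the within-array log2 ratio of 2 3p arms minus its mean at 2 months; points are arrays (3 per age), rows are ratios, and the dotted line parts those between clusters from those within one. Aged points lie to the left of the young ones in 5 of 6 rows between clusters and overlap them in all 4 rows within a cluster.

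The 2 same-seed ratios kept their sign in all 23 alternatives, but many of these could not change them. A single factor per array, the floor, the detection filter and the variance model left them at -0.23 and -0.16. Over the alternatives other than leaving out single arrays, miR-141-3p over miR-200a-3p ranged from -0.24 to -0.16. There miR-200c-3p over miR-200b-3p ranged from -0.16 to -0.08. For miR-141-3p over miR-200a-3p the difference ranged from -0.26 to -0.20 as single arrays were left out, and for miR-200c-3p over miR-200b-3p from -0.18 to -0.13. Within slide row 1 both stood at -0.16, from 1 aged array. Under quantile normalization, which does not apply a single factor per array, miR-200c-3p over miR-200b-3p was -0.08 and overlapped, and 4 of 6 ratios between clusters and 1 of 4 within them were without overlap. With normexp background correction, which adds an offset to all signals, miR-200c-3p over miR-200b-3p was -0.11 and overlapped (exact permutation p = 0.2). There 2 of 6 ratios between clusters were without overlap and 0 of 4 within.

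Scaling set the sign of the separate differences. With the median over detected probes miR-141-3p stood at -0.24 and miR-200c-3p at -0.19, while the chromosome 4 members stood near 0 (-0.04 to 0.01). In the authors' deposited processed values miR-141-3p stood at -0.27 (limma adjusted p = 0.246), and the groups of miR-141-3p, miR-200c-3p and miR-200a-3p each overlapped. Without scaling the chromosome 4 members were at 0.03 to 0.08 and the chromosome 6 pair at -0.18 and -0.13. Against the median of all tested miRNAs under the same scaling, all 6 members were lower with each of these, with the 75th percentile of all probes and with normexp. A single factor per array moves the members and that median alike. The median over detected probes, no scaling and the 75th percentile of all probes thus had to repeat the main result and add nothing to it. The authors' values also carry only a constant per array. There miR-141-3p over miR-200a-3p and miR-200c-3p over miR-200b-3p stood at -0.23 and -0.16, as in the scaling used. For the 3p arms the authors' values thus add little to the main result. miR-200b-5p did not shift with the 3p arms (-0.148, against -0.154 in the scaling used). Under quantile normalization 5 members were lower than that median, and miR-200b-5p was higher. Of the other alternatives, 5 members were lower with the mean of log2 probe values and without aged array 1.

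**Figure D4:**
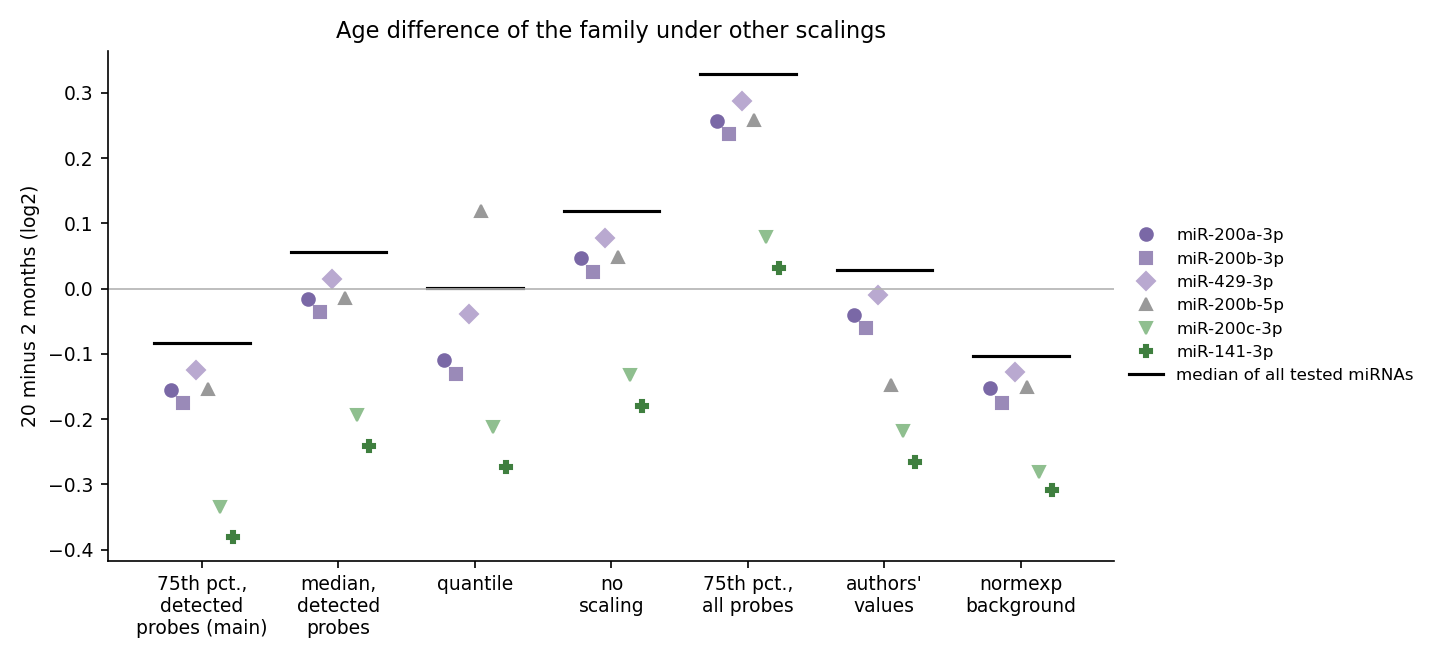
The vertical axis is the difference between 20 and 2 months (log2), the horizontal axis the processing, markers are the 6 members, and black bars are the median of all tested miRNAs. The members change sign with the scaling (all 6 positive when the 75th percentile was that of all probes, 0.03 to 0.29, SE 0.30 each), while miR-141-3p and miR-200c-3p are below miR-200a-3p, miR-200b-3p and miR-429-3p under each. A single factor per array cannot change that order.

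The other arms of the 5 hairpins were mostly below background. miR-200a-5p, which shares the seed of miR-200b-5p, was well above background on 2 young arrays and 1 aged array and was not tested. It read -4.08, -4.18 and -4.15 in young and -4.61, -4.33 and -4.33 in aged kidney, lower on every aged array but close to the detection limit. miR-200c-5p, miR-141-5p and miR-429-5p were well above background on 0 of 6 arrays and lay at the floor on each.

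Of 12 miRNAs listed as known from epithelium or from epithelial-mesenchymal transition, 7 were tested, 1 rose and 0 fell by limma, against 4.15% and 3.63% over all tested (1 lower at an unadjusted p under 0.05, against 15.5%), and their median difference was 0.09 (-0.08 over all tested miRNAs). The one that rose was miR-34a-5p, a p53-induced miRNA that also targets Snail transcripts, from 0.18 ± 0.18 (SD) to 0.89 ± 0.15 (limma adjusted p = 0.0235). The brightest were miR-30a-5p, a tubule miRNA, at 0.03 ± 0.08 (difference ± SE), the kidney-enriched miR-192-5p at 0.14 ± 0.11 and miR-30c-5p at 0.09 ± 0.09, with limma adjusted p of 0.847, 0.434 and 0.531. The 1 lower at an unadjusted p was miR-96-5p, named after its values were seen, at -0.49 ± 0.17 (limma adjusted p = 0.124). Its aged arrays lay wholly below the young ones, and it was well above background on 3 young and 2 aged arrays. miR-101a-3p and miR-203-3p, also tested, stood at 0.08 and 0.15. miR-205-5p, which also targets Zeb1 and Zeb2, was well above background on 1 young array only and was not tested.

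Marker lists of other cell types are given by their calls and by their summed level under the scaling used. Of the 5 fibroblast and smooth muscle miRNAs, 2 rose and 0 fell (4.15% and 3.63% over all tested). At an unadjusted limma p under 0.05, 15.5% of all tested miRNAs were lower, and the share higher was not worked out. Counts at that level in this paragraph are therefore not read as results about the lists. Of these 5 miRNAs, 3 were higher and 2 lower at that level. The 2 lower ones, named after their values were seen, were the smooth muscle miRNAs miR-143-3p and miR-145a-5p at -0.27 and -0.25 (limma adjusted p = 0.12 and 0.149), each wholly below its young values. The list summed to 1.04 to 1.1 on young arrays and 1.23 to 1.36 on aged arrays. The 4 leukocyte miRNAs summed to -0.86 to -0.66 and -0.51 to -0.19, with 0 past the threshold by limma and 2 higher at an unadjusted p under 0.05. The 2 red blood cell miRNAs summed to 3.05 to 3.22 and 2.66 to 2.83, again with 0 past the threshold by limma and 2 lower at an unadjusted p under 0.05. These sums depend on the scaling, which was varied for them after the values were seen. Scaled to the 75th percentile of all probes, the aged minus young difference of the red blood cell sum was 0.054, with overlap. Under the other scalings tried it was -0.48 to -0.16, with overlap when unscaled. The leukocyte sum was higher without overlap under every other scaling tried (0.60 to 0.88). That of fibroblast and smooth muscle was higher under each (0.28 to 0.62), with overlap when unscaled. The 6 tubule miRNAs summed to 4.36 to 4.56 and 4.4 to 4.59, ranges that overlap, and 0 passed by limma (1 at an unadjusted p under 0.05). The neuronal miR-124-3p was well above background on 0 young and 3 aged arrays. It was called higher by limma (1.37), but it entered the test through the aged arrays alone. Its young values were all at the floor, so the call follows from its detection. Of the endothelial pair, miR-126-3p could be tested and differed by 0.08 ± 0.08 (limma adjusted p = 0.519), and 0 of 3 striated muscle miRNAs were bright enough to be tested. The part of these lists in the lower values of miR-141-3p and miR-200c-3p was not tested.

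Other miRNAs had nearly the same profile over the 6 arrays. By the root mean square difference between centred log2 profiles, the 3 nearest to the chromosome 4 cluster were miR-10b-5p (0.030), let-7i-5p (0.040) and miR-30e-3p (0.040), where the median miRNA was at 0.156. The 3 nearest to the chromosome 6 cluster were miR-322-5p (0.039), miR-503-5p (0.045) and miR-378b (0.064), with the median at 0.224. The profiles include the difference between the ages, so age differences near those of the cluster follow from this choice. For the chromosome 4 neighbours they were -0.16, -0.14 and -0.08 (limma adjusted p = 0.292, 0.362 and 0.561). For the chromosome 6 neighbours they were -0.31, -0.43 and -0.32, and that of miR-503-5p passed the threshold (limma adjusted p = 0.032).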

How the data were processed

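Per the labels' protocols, purified total RNA of each kidney preparation was labelled with Cy3 and hybridised to 1 array. Per the file headers, arrays of design 046065 (build mm9) were read with Feature Extraction 11.5.1.1, and the deposited spot values are fluorescence intensity corrected for background and not scaled between arrays. The processed values deposited by the authors are on a log2 scale. Set against the scanner files, they are log2 of the total signal of each miRNA minus a constant for each array (largest departure 1e-05). What that constant is was not given in the sources used here. Over all their features the medians were -9.74, -9.21, -9.21, -9.49, -10.1 and -9.20.

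From the 49880 spots that were no controls, the intensity was averaged over the spots of each of 3105 probes without outlier spots, divided by the array's 75th percentile, summed over the probes of a miRNA, floored and put on a log2 scale. A probe counted as well above background if the scanner software marked more than 50% of its kept spots that way. The 193 miRNAs with such a probe on all 3 arrays of a group were tested with limma 3.58.1 (R 4.3.3; lmFit, eBayes, with age group alone in the model), Benjamini-Hochberg adjusted, at 0.05. The fit was tested on simulated data. Input was read with data.table, version 1.17.8, and jsonlite 2.0.0, and figures were drawn with matplotlib 3.10.9. Normexp (offset 50) used the median spot signal in place of the mean signal that had been planned.

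The members, lists and tests were chosen with earlier results of these data known. The text names the 6 members, the other arms of their hairpins, of the epithelial list the miRNAs past the threshold and the 3 brightest, and the 3 nearest profiles per cluster. It also names miR-205-5p, miR-122-5p and miR-124-3p, added for their detection. The remaining tested miRNAs of the epithelial list, miR-96-5p, miR-101a-3p and miR-203-3p, were added after their values were seen. miR-145-5p was matched to the array's miR-145a-5p. The replicate numbers were used to pair the arrays only in the replicate block, an alternative model.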

Additional observations from a re-analysis of the deposited data

How the results depend on the processing

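The age difference of miR-141-3p passed the threshold in 6 of 17 alternatives other than leaving out single arrays, and in 1 of 6 that left one out (differences -0.43 to -0.35). It no longer passed with the median over detected probes (-0.24), quantile normalization (-0.27), no scaling (-0.18), normexp (-0.31), the authors' values (-0.27), no detection filter (-0.38), outlier spots kept (-0.39), slide row as a block (-0.39), slide row 1 alone (-0.39) or a replicate block (-0.38), and the number of members lower past the threshold was then 0, except in slide row 1 alone, where miR-200c-3p passed (-0.48) and the number was 1. That number was 0 to 1 as single arrays were left out. With the 75th percentile over all probes the number was 0 and the differences were 0.26 for miR-200a-3p, 0.24 for miR-200b-3p, 0.26 for miR-200b-5p, 0.29 for miR-429-3p, 0.078 for miR-200c-3p and 0.031 for miR-141-3p. Each of these differences had an SE of 0.30. Other sign changes were miR-429-3p with the median over detected probes (0.015), miR-200b-5p with quantile normalization (0.12), and, without scaling, miR-200a-3p (0.046), miR-200b-3p (0.026), miR-200b-5p (0.048) and miR-429-3p (0.077). The mean difference of the chromosome 4 cluster moved by more than its SD between arrays (0.09) with the 75th percentile over all probes (0.26), the median (-0.013), quantile normalization (-0.040), no scaling (0.049), and slide row as a block or alone (-0.26 each). That of the chromosome 6 cluster moved by more than its SD (0.08) with the same first 4 (0.055, -0.22, -0.24 and -0.16) and the authors' values (-0.24). As single arrays were left out these means ranged from -0.20 to -0.10 and from -0.42 to -0.32. The causes were not tested. With its 3p arms alone, a choice added once the values were known, the chromosome 4 mean was -0.15.

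Deviations of same-numbered young and aged arrays correlated at 0.12, -0.58 and 0.31, and those of differently numbered ones at -0.48 to 0.40. Deviations centred within groups of 3 arrays cannot settle whether the numbers pair them. The design text names no pairing, so the main model has none. The replicate block took the calls over all miRNAs from 8 higher and 7 lower to 2 and 1, and left the differences of the members as they were. Signal close to background limits miR-200b-5p and miR-200a-5p, and the number of arrays limits the precision of all values.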
